A study of Brassica carinata x Brassica rapa with 9 samples.

Results

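Of the 100804 genes measured in leaves, ovules and anthers of a synthetic Brassica allohexaploid, 20929 had no expression value above 0 in any of the 3 Leaf libraries. The 200 genes described here are those among the 20929 with the highest expression in both reproductive organs. They were ranked by the smaller of their mean in Anther and their mean in Ovule, so a gene abundant in 1 organ and absent from the other could not enter. The Leaf values and both means therefore chose the genes, and the levels and the contrasts with Leaf are given as a description with no test. Genes are named by their identifiers, in which Bra marks the A-genome, BniB the B-genome and Bol the C-genome. Names, functions, positions and sequences of the 200 genes were not analysed here, and roles are given only for genes of the study's own lists.

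Anthers and ovules both house meiosis and the haploid generation that follows it, and leaves house neither. In anthers, meiosis gives microspores that mature into pollen, fed by the tapetum, a nutritive layer whose lipids and polymers build the pollen wall. In ovules, 1 product of meiosis forms the embryo sac inside integuments that are dividing, growing maternal tissue. Genes used in both organs and not in a leaf can therefore serve meiosis, haploid cells, the floral tissue around them, or a different process in each organ.

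Every library came from plants of genotype AABBCC, in which B. rapa contributed the A-genome and B. carinata the other two. Anther spans the stages between meiosis and mature pollen, Ovule those between meiosis and a mature embryo sac, and Leaf is the vegetative control, taken from young leaves. Each organ has 3 libraries, described as biological replicates, and neither plant ages nor the number of plants per library were found in the sources. The labels name B. carinata as the male and B. rapa as the female parent, the study's methods the reverse. In whole organs that span many stages, fewer cells of a type and less RNA per cell cannot be told apart. The spread over 3 libraries also holds any difference in the mix of stages collected.

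Values are FPKM, read fragments scaled by gene length and library size, and each could be read back as whole reads within a tolerance of 0.01 read. The reads behind the values came to 8676430 to 10154960 per Leaf library, 15113443 to 15515969 per Ovule library and 15075314 to 15525181 per Anther library. Reads that match related copies on several subgenomes may have been dropped or given to 1 copy, so a 0 is a 0 for that copy as counted. The organs were checked with the study's gene lists, which were chosen on these libraries: 51 genes of tapetum, sporopollenin and pollen wall summed to 8574 to 15718 FPKM in Anther, 40.8 to 145 in Ovule and 25.4 to 27.8 in Leaf. A list of 23 genes of ovule development summed to 228 to 260 FPKM in Ovule, 74.7 to 87.6 in Anther and 22.2 to 27.5 in Leaf. Among the libraries of an organ, 2 stood apart. In Anther 2, the 37 meiotic genes of the study summed to 370 FPKM, against 136 in Anther 1 and 157 in Anther 3, while its sum over the 51 male genes was the lowest of the 3. The parts of the male list differed: the 15 tapetum genes summed to 1851, 1874 and 1592 FPKM in Anther 1, 2 and 3, the 27 sporopollenin genes to 8588, 5765 and 9755, and the 9 pollen wall genes to 4296, 934 and 4370. In Ovule 3, the 51 male genes summed to 145 FPKM, against 40.8 in Ovule 1 and 67.0 in Ovule 2, and the main counts are given with and without these libraries.

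At the level of the list, expression in both organs without a read in Leaf was uncommon. Of the 34536 genes whose Anther and Ovule means both reached the level of the last of the 200 genes, 0.579% were at 0 in Leaf. The choice of 200 genes set that level, so the share holds for this level only. With a smaller mean of at least 1 FPKM, 722 genes were at 0 in Leaf. The other 34336 genes, which have that level and at least 1 Leaf read, are used below as the comparison set. The smaller of the 2 means ran from 104 FPKM for the first gene to 4.12 for the last, with a median of 7.79. It was at least 10 FPKM for 74 genes, at least 20 for 37 and at least 50 for 8. Anther was the smaller for 107 genes and Ovule for 93. At the threshold, Bra036583 (last but one) had a smaller mean of 4.23 FPKM and Bol026162 (last) one of 4.12. The 2 genes left just outside were Bol022392 at 4.12 and BniB000195 at 4.11, both with the smaller mean in Anther and with Ovule means of 23.6 and 46.8 FPKM.

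The absence from Leaf was sharp for most of the 200 genes, as far as depth allows. A level of 3 reads in a Leaf library, taken as the floor, was worth 0.117 to 1.86 FPKM depending on gene length, with a median of 0.424. Against that floor the Anther mean was at least 2.81-fold higher for the gene with the least margin and at least 34.4-fold higher for the median gene. The Ovule mean was at least 3.21-fold and at least 30.2-fold higher by the same reckoning. The margins were widest for BniB039562, at least 9760-fold in Anther, and for Bol036081, at least 808-fold in Ovule. Behind the values stood a median of 167 reads per Anther library and 148 per Ovule library, and these bounds cover counting error only. Of the 200 genes, 188 were above 0 in each of the 6 Anther and Ovule libraries. The 12 exceptions were at 0 in 1 library each, 8 of them in Ovule 1 and 4 in Anther 2.

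In Anther, 28 of the genes had a mean above 100 FPKM, 94 lay above 10 and up to 100, and 78 at or below 10. In Ovule the same classes held 12, 106 and 82 genes. Without Ovule 3 and Anther 2 the means above 100 FPKM numbered 29 in Anther and 14 in Ovule. The highest mean was 7265 FPKM in Anther (Bra009282) and 328 in Ovule (BniB002303), so the upper end of the range belonged to Anther. Together the 200 genes made up 0.469 to 0.532% of all FPKM in the Ovule libraries, and 4.44, 1.89 and 3.66% in Anther 1, 2 and 3. The plot of both means shows a cloud spread about equal levels and an arm of high Anther values. The ratio of means, Anther over Ovule, passes from cloud to arm without a wide gap, with 15.3 and 20.02 as neighbouring values.

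**Figure D1:**
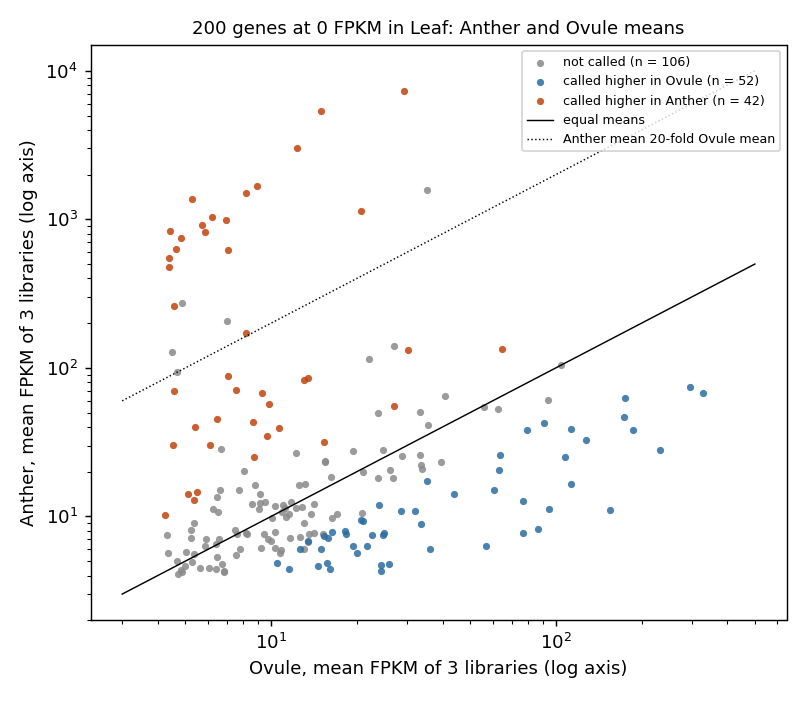
Mean FPKM of 3 Ovule libraries (x axis, log) against mean FPKM of 3 Anther libraries (y axis, log) for each of the 200 genes, coloured by the call of Anther against Ovule (limma), with lines for equal means and for an Anther mean 20-fold the Ovule mean. Between the quartiles of the list the log2 difference in limma lies from -1.07 to 1.00 around equal levels, and 106 genes were not called. Above the dotted line lie 24 points, reaching an Anther mean of 7265 FPKM.

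The 10 genes of highest rank show what such a gene looks like in single libraries. Bra033049, the first, had 103, 104 and 105 FPKM in Ovule 1, 2 and 3 and 121, 90.2 and 104 in Anther 1, 2 and 3. Its Ovule values fell inside the range of its Anther values. The log2 difference, Anther minus Ovule, was 0.00 ± 0.13 (SE, n = 3 libraries each; 95% interval -0.28 to 0.29) in limma, so a 2-fold difference either way lies outside its interval. BniB037470 was as even, with 54.3, 54.2 and 59.1 FPKM in Ovule and 44.4, 63.6 and 56.4 in Anther. Bol034367 had 89.7, 100 and 90.4 FPKM in Ovule and 68.8, 47.7 and 65.5 in Anther. These groups did not overlap, but the log2 difference of -0.64 ± 0.15 was short of the 2-fold limit.

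Another 5 of the 10 leaned to Ovule. Bra024168 had 288, 257 and 342 FPKM in Ovule and 73.5, 77.2 and 71.8 in Anther. The lowest Ovule library was far above the highest Anther library, and the log2 difference was -1.98 ± 0.12 (adjusted p = 2.2e-06, limma with Benjamini-Hochberg adjustment). BniB002303 had 305, 314 and 364 FPKM in Ovule and 51.3, 76.7 and 74.99 in Anther, a log2 difference of -2.29 ± 0.16. BniB013789, with 185, 193 and 142 FPKM in Ovule and 45.0, 57.1 and 37.9 in Anther, was lower in Anther by -1.90 ± 0.18 on the log2 scale. Those 3 genes kept their calls under each alternative that was run. Bra021470 had 101, 107 and 64.7 FPKM in Ovule and 43.0, 43.7 and 40.8 in Anther, a log2 difference of -1.06 ± 0.19 that slipped under 2-fold with rescaled libraries, with voom, or without Ovule 1 or Ovule 2. BniB035255 had 78.4, 258 and 189 FPKM in Ovule and 19.0, 110.97 and 57.2 in Anther, so the groups overlapped. Its log2 difference of -1.66 ± 0.60 passed narrowly (adjusted p = 0.046, limma). The call was lost when any 1 of Ovule 2, Ovule 3, Anther 1, Anther 3 or the Leaf libraries was left out. It was also lost with no filter, with a pseudocount of 0.01, with rescaled libraries, and with only the Anther and Ovule libraries fitted.

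BniB005780 alone among the 10 leaned to Anther, with 131, 165 and 107 FPKM there and 76.2, 56.4 and 61.1 in Ovule. The groups did not overlap and the log2 difference was 1.05 ± 0.18 (adjusted p = 0.0011, limma), which fell under 2-fold without Ovule 2 or without Anther 2. BniB014257 varied too much for a call, with 34.2, 112 and 41.3 FPKM in Ovule and 75.5, 20.4 and 64.0 in Anther. Its 95% interval ran from -1.43 to 0.97 on the log2 scale.

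Whether such genes are shared evenly by the organs or lean to 1 of them was asked by comparing Anther with Ovule. The ranking limits how one-sided a gene can be, but it does not set the direction. In limma over the 75038 genes with enough expression to test, 42 of the 200 (21.0%) were called higher in Anther and 52 (26.0%) higher in Ovule, where a call needed a 2-fold difference or more together with an adjusted p no higher than 0.05. Over all genes tested the shares were 14.3% and 14.3%, and in the comparison set they were 5.27% and 9.14%. The 200 genes thus held a larger share of calls in both directions than genes of the same minimum level with Leaf reads, as a description of these lists. Libraries did not overlap, with Anther higher, for 51 of the 200, beside 23.6% of all genes tested. They did not overlap, with Ovule higher, for 65, beside 32.1%. Both counts were close to the shares over all genes tested. Without Ovule 3 and Anther 2, which leaves fewer libraries to overlap, the counts were 68 (beside 30.7%) and 83 (beside 42.3%).

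Taken as a list, the 200 genes sat near the other genes in the balance of the organs. The median log2 difference was -0.19, beside -0.11 over all genes tested and -0.16 in the comparison set, and it came to -0.04 when libraries were rescaled by median-of-ratios factors. Under that rescaling, 44 genes were called higher in Anther and 42 higher in Ovule, beside 15.6 and 11.6% of all genes tested. With voom on recovered reads there were 41 and 46, beside 16.3 and 12.3%. The spread was wide, with the middle of the list (lower to upper quartile) between -1.07 and 1.00 on the log2 scale, beside -0.68 and 0.54 over all genes tested. Without Ovule 3 the calls were 43 in Anther and 47 in Ovule, beside 14.3 and 12.6% of all genes tested in that fit. Without Anther 2 they were 49 and 57, beside 10.4 and 15.2%. Without both libraries they were 52 and 56, beside 9.94 and 13.3%. No call changed its direction in any of these fits.

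**Figure D2:**
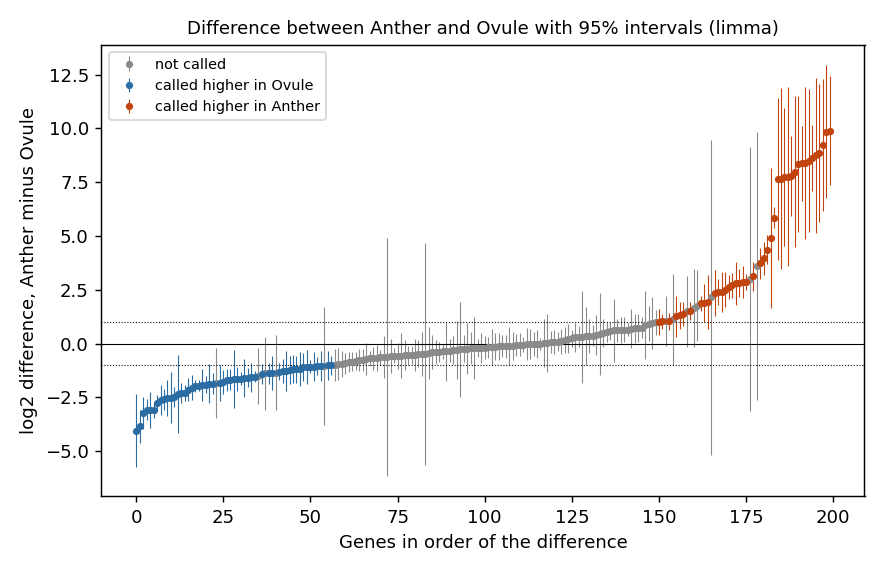
Log2 difference, Anther minus Ovule, of each of the 200 genes with its 95% interval from limma (y axis), in ascending order (x axis), with dotted lines at 2-fold either way. Differences run from -4.04 to 9.90, the 52 genes called higher in Ovule stop at -4.04, and the widest intervals, over 10 log2 units, belong to genes with a value at or near 0 in an Anther library.

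The 52 genes called higher in Ovule differed by moderate folds, from -1.01 to -4.04 on the log2 scale with a median of -1.68, and for 49 of them the libraries did not overlap. Their median FPKM was 30.8, 31.9 and 28.5 in Ovule 1, 2 and 3 and 10.2, 9.50 and 8.34 in Anther 1, 2 and 3. Each of them had reads in all 3 Anther libraries. The largest ratio of means toward Ovule was 14.1 (Bra020616).

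Bra020616 had 104, 210 and 151 FPKM in Ovule and 16.3, 6.35 and 10.4 in Anther. Its log2 difference was -3.85 ± 0.34 (adjusted p = 2.1e-05, limma). The fitted difference was larger for Bra029247, which had 94.3, 87.0 and 78.0 FPKM in Ovule and 16.2, 1.07 and 7.51 in Anther. The log2 difference of -4.04 ± 0.75 (adjusted p = 0.0019, limma) carries a wide error because Anther 2 was so low. BniB006650 had 45.8, 117 and 68.5 FPKM in Ovule and 9.51, 5.76 and 7.97 in Anther. Both of the remaining genes of the 5 with the largest difference come from the C-genome. Bol036081, the longest of the genes at 2721 coding bases, had 108, 97.1 and 77.9 FPKM in Ovule and 10.9, 14.5 and 8.53 in Anther. Bol009989 had 66.6, 75.7 and 27.7 FPKM in Ovule and 8.23, 6.05 and 4.55 in Anther. In each of these 5 genes the lowest Ovule library was above the highest Anther library.

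Genes called higher in Anther were of more than 1 kind. Their log2 differences ran from 1.02 to 9.90 with a median of 3.43, and for 41 of the 42 the libraries did not overlap. The share without overlap among all called genes was not counted. The 41 of 42 here and the 49 of 52 in Ovule are therefore a description only. Of the 42, 19 had an Anther mean at least 20-fold the Ovule mean. The other 23 ran from 1.02 to 3.96 with a median of 2.38, and Ovule 3 was the highest Ovule library in 11 of these 23. Just under the 20-fold line stood BniB013130, with 87.9, 46.7 and 75.2 FPKM in Anther and 3.47, 3.04 and 7.19 in Ovule, a ratio of means of 15.3. Bra009261 had 99.2, 76.5 and 89.5 FPKM in Anther and 7.75, 3.69 and 9.67 in Ovule. BniB024080 had 89.8, 39.1 and 83.7 FPKM in Anther and 8.11, 7.79 and 6.66 in Ovule. These 3 genes, the largest differences outside the 20-fold group and named after their values were seen, had reads in every Ovule library, 35 to 95 in each. At the last ranks, Bra036583 had 6.42, 15.4 and 8.85 FPKM in Anther and 5.60, 4.93 and 2.16 in Ovule. Its call (log2 difference 1.27 ± 0.42, adjusted p = 0.032, limma) was lost without Ovule 3, without Anther 2 or without Anther 3. It was also lost with a pseudocount of 0.01.

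For the 106 genes with no call, the intervals separate genes whose difference was bounded within 2-fold from genes for which a larger difference was not excluded. In 42 of them the 95% interval lay within 2-fold either way, and in 64 it reached beyond. Without Ovule 3 and Anther 2, 92 genes had no call, 26 with the interval within 2-fold and 66 beyond. A further count within the 106 gives 19 genes whose adjusted p was at most 0.05 in limma but whose fold was under 2. An interval within 2-fold is therefore not a sign of equal levels. That of Bol034367, for example, ran from -0.99 to -0.29 on the log2 scale. The most even genes after Bra033049 were ordinary in level. BniB006605 had 8.95, 13.3 and 11.2 FPKM in Ovule and 12.6, 14.5 and 7.26 in Anther, a log2 difference of -0.00 ± 0.29. Bol024382 had 7.76, 8.58 and 6.43 FPKM in Ovule and 6.0, 7.28 and 9.61 in Anther, and BniB009716 had 6.76, 2.95 and 5.22 in Ovule and 4.54, 5.01 and 4.38 in Anther. Bol015163 had a similar fitted difference of 0.02, but with 6.58, 6.76 and 4.33 FPKM in Ovule and 10.6, 2.30 and 8.15 in Anther its interval ran from -1.10 to 1.14. Across all 6 libraries, the highest value was at most 1.5 times the lowest in 7 of the 200 genes and at most 2 times in 31. At the other end, it was over 10 times the lowest, or the lowest was 0, in 58. Without Ovule 3 and Anther 2 these counts were 24, 56 and 41. With any library left out this ratio can only fall or stay the same, so the direction of that change is not a result.

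A group of 24 genes had an Anther mean at least 20-fold the Ovule mean, a limit chosen after the values were seen. Their ratio of means ran from 20.02 to 358, and no gene was as one-sided toward Ovule. Their Anther means ran from 93.4 to 7265 FPKM, beside at most 141 in the other 176 genes. Their Ovule means ran from 4.37 to 35.3 FPKM, beside at most 328 in the others. BniB039562 had 6649, 4581 and 4846 FPKM in Anther 1, 2 and 3 and 0.556, 6.72 and 37.7 in Ovule 1, 2 and 3. Bra009282 had 8847, 4901 and 8047 FPKM in Anther and 0.443, 10.5 and 77.2 in Ovule. In both genes the Anther values were within a few-fold of each other and the Ovule values were spread over orders of magnitude. The log2 difference was 9.90 ± 1.12 for BniB039562 and 9.85 ± 1.37 for Bra009282 (adjusted p = 9.5e-05 and 0.00035, limma).

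The next 3 by difference repeated the Ovule pattern with a lower Anther 2. Bra032758 had 1884, 360 and 1848 FPKM in Anther and 0.0446, 3.01 and 12.7 in Ovule. Bol028720 had 947, 204 and 1101 FPKM in Anther and 0, 1.52 and 12.96 in Ovule. Bol042410 had 1369, 159 and 1428 FPKM in Anther and 0, 1.98 and 18.9 in Ovule. Each had no more than a few reads in Ovule 1 and its highest Ovule value in Ovule 3. Bra032758 and Bol042410 both have 1443 coding bases, and in all 6 of the 24 genes have nearly that length, but whether these are copies of 1 gene was not analysed here.

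The place of most of these 24 genes in the list rested on Ovule 3. Ovule 3 was the highest Ovule library in 23 of the 24, beside 69 of the other 176 genes and 34.4% of all genes tested. The order Ovule 3, Ovule 2, Ovule 1 from high to low held in 22 of the 24 and in 35 of the other 176. Of a gene's summed Ovule FPKM, the median share was 1.19% in Ovule 1, 15.2% in Ovule 2 and 82.1% in Ovule 3, whereas in the other 176 genes it was 32.5, 33.7 and 33.4%. Ovule 1 was below 1 FPKM in 15 of the 24 and at 0 in 8, and these 8 are the genes at 0 in Ovule 1 of the whole list. With Ovule 3 left out of the Ovule mean, the smaller mean fell below that of the last of the 200 genes in 20 of the 24 and in 4 of the other 176. When the list was drawn again without Ovule 3, 179 of the 200 genes remained and 7 of the 24.

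Genes of anther development outside the list were also highest in Ovule 3. Summed over the 24 genes, Ovule 1, 2 and 3 held 0.102, 0.334 and 1.68% of the Anther mean sum. The 51 male genes of the study, none of them among the 200, held 0.314, 0.515 and 1.12%, and Ovule 3 was the highest Ovule library for 47 of the 50 with an Ovule value above 0. Much of the male sum of 40.8 FPKM in Ovule 1 came from copies that also had reads in Leaf. BniB031910 had 21.5, 21.9 and 22.4 FPKM in Ovule 1, 2 and 3 and 9.68 to 11.7 in Leaf. BniB015834 had 8.46, 10.6 and 11.8 in Ovule and 3.29 to 3.58 in Leaf. Bol024018 had 5.99, 6.81 and 7.90 in Ovule and 10.1 to 11.4 in Leaf. Of the 51 male genes, 35 were at 0 in Ovule 1. For the 9 genes of the pollen wall among the 51, the sums in Ovule 1, 2 and 3 were 0.0315, 11.6 and 34.2 FPKM, and 8 of the 9 were at 0 in Ovule 1. Outside the 200, 238 genes had an Anther mean of at least 100 FPKM and at least 20-fold the Ovule mean, and Ovule 3 was the highest Ovule library in 84.5% of them. The part of anther RNA in the Ovule 3 values of the 24 genes was not tested.

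**Figure D3:**
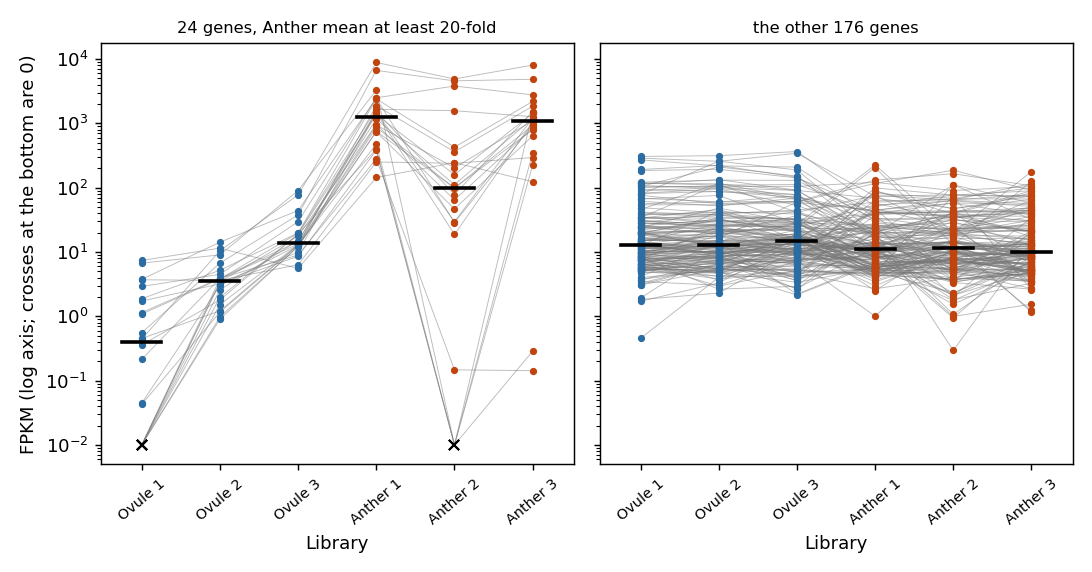
FPKM (y axis, log, with values of 0 drawn as crosses at the bottom) in each of the 6 Ovule and Anther libraries (x axis) for the 24 genes with an Anther mean at least 20-fold the Ovule mean (left) and the other 176 genes (right), with lines joining the libraries of a gene and black bars at the median. In the 24 genes the median is 0.400 FPKM in Ovule 1, 3.54 in Ovule 2 and 13.9 in Ovule 3, and in the other 176 the Ovule medians lie between 12.6 and 14.7.

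Not every gene of the 24 followed the pattern. Bra035270, the 1 gene whose highest Ovule library was not Ovule 3, had 7.38, 11.5 and 5.55 FPKM in Ovule and 144, 244 and 124 in Anther. Bra006549 had 3.70, 3.62 and 6.33 FPKM in Ovule and 251, 240 and 294 in Anther. Both had at least several FPKM in each Ovule library, and their log2 differences had small errors, 4.37 ± 0.30 and 5.86 ± 0.22. Bra040627 (2500, 3803 and 2772 FPKM in Anther, 2.91, 4.50 and 29.6 in Ovule) and Bol033811 (1656, 1573 and 1269 in Anther, 1.08, 3.81 and 19.6 in Ovule) were highest in Ovule 3 too but were not low in Anther 2. These 4 genes are named here after their values were seen.

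Anther 2 stood apart in a part of the list. In 37 of the 200 genes (18.5%) the mean of Anther 1 and Anther 3 was at least 3 times the value in Anther 2, beside 7.08% of all genes tested and 0.818% of the comparison set. Of the 37, 18 belonged to the group of 24, 13 were called higher in Anther, 3 higher in Ovule and 21 not called. In 7 genes (3.5%) Anther 2 was instead at least 3 times the mean of the others, beside 1.26% and 0.0379%, and none of these was called. The study's pollen wall and sporopollenin genes also had their lowest sums in Anther 2, and its meiotic genes their highest. Its tapetum genes summed to nearly the same in Anther 2 as in Anther 1 (1874 against 1851 FPKM, with 1592 in Anther 3). Single tapetum copies went both ways, with Bra002004 lowest and Bol042692 highest in Anther 2. Whether the mix of stages in Anther 2 has a part in its low or its high values was not tested.

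The genes with the lowest share in Anther 2 had no read there at all. Bol014756 had 3263, 0 and 1493 FPKM in Anther and 6.72, 9.02 and 90.3 in Ovule. Bol004980 had 395, 0 and 223 FPKM in Anther and 0.358, 1.80 and 18.9 in Ovule, and Bra024207 had 475, 0 and 351 in Anther and 0.454, 1.22 and 12.9 in Ovule. None was called over all libraries, with standard errors of 2.73 to 3.25, and all 3 were called higher in Anther without Anther 2, with log2 differences of 6.96, 6.87 and 7.59. Lower values of the same kind outside the 24 were those of BniB017113, with 224, 19.8 and 177 FPKM in Anther and a steady 28.3, 25.7 and 27.1 in Ovule. Bra031144 was alike, with 206, 12.8 and 126 FPKM in Anther and 21.2, 20.7 and 24.1 in Ovule. These 2 genes, named after their values were seen, were expressed in Ovule 1 as in Ovule 3, unlike most of the 24.

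The reverse pattern was strongest in Bol007913, with 4.96, 73.0 and 2.57 FPKM in Anther and 13.9, 8.35 and 14.4 in Ovule. Its neighbour by identifier, Bol007914, had 1.01, 12.2 and 1.23 FPKM in Anther and 7.90, 4.80 and 7.43 in Ovule. They were the only pair of the 200 genes with consecutive identifiers, and both peaked in Anther 2, where they were 19.4 and 10.9 times the mean of the other Anther libraries. Bra024977 had 2.51, 14.5 and 1.16 FPKM in Anther and 14.2, 10.2 and 14.7 in Ovule. Without Anther 2 these 3 genes were called higher in Ovule, with log2 differences of -1.70 (Bol007913), -2.46 (Bol007914) and -2.84 (Bra024977). Their level in anthers thus rested largely on 1 library, whereas their Ovule level was present in all 3.

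In 2 other genes of the 24, named after their values were seen, a single library carried the Anther mean. BniB023462 had 383, 0 and 0.288 FPKM in Anther 1, 2 and 3 and 1.73, 3.19 and 8.58 in Ovule. Bra028691 had 280, 0.147 and 0.143 FPKM in Anther and 1.15, 3.89 and 8.96 in Ovule. Anther 1 was at least 100 times each other Anther library in these 2 of the 200 genes. Neither was called, and their 95% intervals covered more than 10 log2 units.

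**Figure D4:**
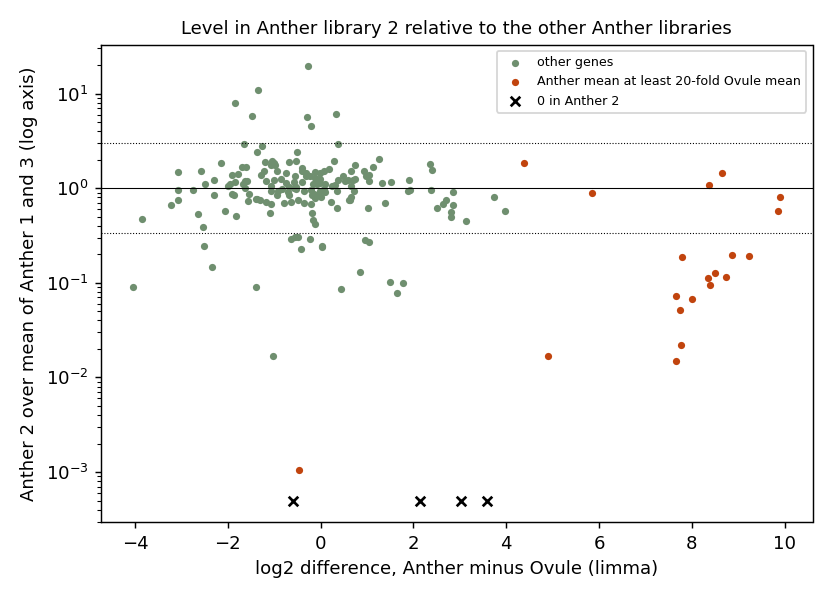
Ratio of the value in Anther 2 to the mean of Anther 1 and Anther 3 (y axis, log, with values of 0 drawn as crosses at the bottom) against the log2 difference, Anther minus Ovule (x axis), for the 200 genes, with dotted lines at 3-fold either way. Most genes lie near a ratio of 1, 37 lie at or below the lower line, 18 of them from the group of 24 (red points and crosses), and 7 lie at or above the upper line, led by Bol007913 at 19.4.

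As a description of these lists, replicates of the 200 genes varied more than those of other genes. Ranking by means can let in a gene carried by a single high library. Without Ovule 3, the smaller mean fell below that of the last gene in 20 of the group of 24 and 4 of the other 176. The comparison set had to reach the same level in both means. The part of the ranking, or of gene length, in the larger variation of the 200 genes was not tested. The median coefficient of variation was 29.6% in Anther and 22.6% in Ovule, beside 21.2% and 16.4% over all genes tested and 15.6% and 10.6% in the comparison set. It was larger in Anther than in Ovule for 115 of the 200, and at most 20% in both organs for 37. Those 37 were the steadiest in both organs, among them 2 genes named after their values were seen, Bra030032 (12.98, 9.65 and 12.7 FPKM in Ovule, 12.2, 11.7 and 13.4 in Anther) and BniB031646 (122, 131 and 130 in Ovule, 32.5, 34.7 and 30.8 in Anther).

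The 3 subgenomes gave members in about the proportion of their genes. The A-genome gave 75 (37.5%), the B-genome 68 (34.0%) and the C-genome 57 (28.5%), beside 35.3, 35.9 and 28.8% of all genes tested. Calls were spread likewise, with 17 higher in Anther and 20 higher in Ovule among the 75 genes of the A-genome. The B-genome had 15 and 18 such calls among 68 genes and the C-genome 10 and 14 among 57. The A-genome gave 12 of the group of 24, the B-genome 5 and the C-genome 7. The genes were short, with a median coding length of 750 bases (quartiles 452 and 1012), beside 1056 over all genes tested and 1017 in the comparison set. A short gene collects fewer reads at the same level, so a Leaf value of exactly 0 is reached more easily in it, and the part of length in the selection was not tested.

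None of the genes that the study names for gamete development was among the 200, although many were at 0 in Leaf. Of the 37 meiotic genes, 6 were at 0 in all Leaf libraries, as were 37 of the 51 male genes and 0 of the 23 female genes. The nearest were a copy of HEI10, which encodes a protein that acts in meiotic crossover formation in Arabidopsis, and a copy of CYP703A2, an enzyme of sporopollenin synthesis. The HEI10 copy Bra038126 ranked 279, with 3.54, 2.03 and 3.37 FPKM in Ovule and 4.37, 5.19 and 2.27 in Anther, a level shared by both organs. The CYP703A2 copy Bol040704 ranked 282, with 0, 1.55 and 7.22 FPKM in Ovule and 497, 75.9 and 476 in Anther. Its libraries had the order of the group of 24, highest in Ovule 3 among the Ovule libraries and lowest in Anther 2 among the Anther libraries.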

How the data were processed

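RNA-Seq of 9 libraries (Leaf, Ovule and Anther, 3 each) was used. The deposited values are FPKM. The authors used HISAT2 2.1.0 for alignment to the parental diploid genomes (B. oleracea, B. nigra, B. rapa), took gene counts from HTSeq 0.6.0 and converted them to FPKM. StringTie 1.3.2 is named in the submitters' processing notes without a role. No scaling between libraries is stated, and how reads with several matches were handled is not given in the sources used here. Whole reads could be read back for each of the 100804 genes within a tolerance of 0.01 read; 99.5% of the implied lengths were divisible by 3 (coding lengths, median 1011 bases).

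Anther was compared with Ovule on log2(FPKM + 0.1) with limma 3.58.1 (R 4.3.3), 1 model over 9 libraries, eBayes trend. It took in 75038 genes that reached 0.5 FPKM in 3 or more libraries, among them all 200 members. Fold changes are on that scale, which understates those of low genes. A call needed a 2-fold or larger change and a p no higher than 0.05 after Benjamini-Hochberg adjustment over all genes tested. limma stands in for the count test of the study, since FPKM was used. Tables and plots were made in Python 3.11.15 (numpy 2.4.6, pandas 2.3.3, matplotlib 3.10.9). The procedure was tested on simulated data.

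Members and lists were chosen with earlier results of these data known. Named genes are the first 10, the 5 with the largest called difference each way, the 5 most even, those at the threshold, and the 3 with the highest and the 3 with the lowest share in Anther 2; others are named as chosen after their values were seen. The alternatives changed the pseudocount to 1 or 0.01, dropped the filter or set it to 1 FPKM, rescaled libraries with median-of-ratios factors over the 62597 genes above 0 in every library, fitted only the 6 Anther and Ovule libraries, used a replicate block, or left out each library. Added after seeing the data were limma voom on recovered reads, and Ovule 3 and Anther 2 both left out. Membership was recounted with up to 3 Leaf reads, other rankings, rescaling and left-out libraries.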

Additional observations from a re-analysis of the deposited data

How the results depend on the processing

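The calls of Anther against Ovule, 42 and 52 of the 200 genes, stayed within 1.5 times these counts in each alternative, and no call changed direction. Over the single libraries left out they ranged from 39 to 49 higher in Anther and from 45 to 57 higher in Ovule, with the median log2 difference between -0.27 and -0.11. The shares over all genes tested moved as well, from 9.01 to 14.4% in Anther and from 12.6 to 15.2% in Ovule. Of the 42 and 52 genes, 36 and 38 kept their call in every alternative but those added later. The median of -0.19 moved to -0.042 with rescaled libraries and to -0.035 with voom on recovered reads (added after seeing the data, 41 and 46 calls), and the rescaling moved the median of all genes tested from -0.11 to 0.02. A replicate block gave 42 and 50 calls. Whether the replicate numbers pair the libraries is not known. The correlations of same-numbered Anther and Ovule libraries, as deviations from organ means, were -0.09, -0.02 and 0.16. The last, of Anther 3 with Ovule 3, was the highest of all Anther and Ovule pairs. Anther 1 and Anther 2 each correlated better with an Ovule library of another number. Values this small and of both signs cannot decide the question.

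Membership was less stable. With up to 3 Leaf reads allowed, 116 of the 200 genes stayed, and over the libraries left out 170 to 194. Ranking by the lowest of the 6 libraries kept 160, of which 4 were from the group of 24, and without both Ovule 3 and Anther 2 the list kept 176, 6 of them from that group. For the 32 named genes, 540 of 576 comparisons over alternatives kept the side of the threshold, 23 lost a call and 13 gained one. Depth limits the zeros, since Leaf had the fewest reads behind its values, with 8676430 in its shallowest library. A copy under the floor of 3 reads cannot be told from a silent one. The paper reports clean reads that were closer between organs, and a lower mapping rate in every Leaf library than in any Ovule or Anther library. The part of the mapping rate in the Leaf zeros was not tested.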

Other observations

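The exact 0 in Leaf kept out genes that would have ranked above all of the 200. At the same minimum level in both organs, 181 further genes had only 1 to 3 reads over the 3 Leaf libraries (61 with 1 read, 55 with 2 and 65 with 3). Of these, 5 had a smaller mean above that of Bra033049, and each had its higher mean in Ovule. BniB007951 (3 Leaf reads) had 3979 ± 301 FPKM in Ovule (mean ± SD of 3 libraries) and 1493 ± 229 in Anther. Bra029719 (1 Leaf read) had 4537 ± 259 FPKM in Ovule and 1182 ± 216 in Anther. Bra000815 (2 Leaf reads) had 2006 ± 513 and 222 ± 73.6 FPKM, BniB018452 (2 Leaf reads) 686 ± 67.7 and 197 ± 24.8, and Bol027395 (1 Leaf read) 466 ± 227 and 149 ± 62.0, in Ovule and Anther in that order. Their Ovule means exceed the highest of the 200 genes, 328 FPKM, in all 5. They were chosen after their values were seen.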
